A study of Mus musculus with 9 samples.

Results

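The 7 genes described here make or control MHC class II: the classical chains H2-Aa, H2-Ab1 and H2-Eb1, the invariant chain Cd74, the peptide editors H2-DMa and H2-DMb1, and the transactivator Ciita. They were taken by symbol from a normalized count table of 23134 genes, all 7 were present, and all 7 passed the filter on low values (a mean of at least 10 normalized counts over the libraries) that left 16575 genes for testing. The RNA came from cells collected with CD11b magnetic beads from the cortex and hippocampus of mice aged 2 to 3 months, after myelin and ACSA-2-bearing astrocytes had been removed, and the labels call the cells microglia and the tissue cortex. Control mice received saline, control mice received lipopolysaccharide (LPS, a bacterial cell wall component) at 5 mg/kg into the peritoneum, and mice with an astrocyte conditional knockout (cKO) of Chd8 received the same LPS. Brains were taken 72 hours after LPS, and each group holds 3 libraries.

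The labels call the knockout astrocyte cKO, and no source used here names the allele or the Cre driver. The cells sequenced are not those in which the gene was targeted. Chd8, a chromatin remodeller, was present in every library, at 5041, 6596 and 4252 normalized counts in saline, 5507, 5408 and 5842 in LPS-treated controls and 5214, 6219 and 5453 in cKO LPS. The cKO libraries overlap with the others, so the level of Chd8 in these cells does not check the genotype labels. All 9 titles hold the word saline, and the cKO titles name their group as saline where the genotype and treatment labels give LPS, so the genotype and treatment labels were used. Nothing in the labels says that the libraries are of different mice. The sex read from Xist and Ddx3y, given below, differs within each group, so no group comes from a single mouse. Libraries of the same sex in a group may still be technical repeats, and p-values therefore rest on a spread that may be partly technical. Saline-treated cKO mice were not analysed here.

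MHC class II molecules are pairs of an alpha and a beta chain that show peptides from endocytosed proteins to CD4+ T cells. New pairs assemble on the invariant chain Cd74, which blocks the peptide groove until proteases such as cathepsin S cut it down, and the H2-DM pair then exchanges the remaining fragment for other peptides. Ciita binds no DNA itself but is recruited by a complex of RFX, CREB and NF-Y proteins that sits on the X and Y boxes of class II promoters, and interferon gamma induces it. Resting microglia carry little class II, while border-associated macrophages, dendritic cells and B cells carry much of it.

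In the RefSeq annotation of GRCm38.p6, the assembly that mm10 names, the classical and H2-DM genes lie in the class II region of chromosome 17. H2-DMa spans 34119693 to 34139101, H2-DMb1 34153191 to 34160229, H2-Ab1 34263227 to 34269418 and H2-Eb1 34305867 to 34316674, all on the plus strand, and H2-Aa spans 34282744 to 34287823 on the minus strand. Ciita lies on chromosome 16 from 10480014 to 10531064. H2-DMb1 shares 369 of its 1355 exonic stretches of 50 bases (27.2%) with its neighbour H2-DMb2, so reads could be split between them, while the other 6 genes share none with another gene. H2-DMa overlaps Brd2 on the opposite strand, Ciita overlaps Dexi, and H2-Eb1 overlaps the antisense gene Gm20513. The kit keeps strand, but no source used here says whether counting used it.

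Ciita acts through boxes in class II promoters, and the segments that hold them are shown here because H2-Aa, H2-Eb1 and H2-DMb1 share the arrangement and differ in their values. RefSeq promoter windows on GRCm38.p6 were at hand for 4 of the 7 genes (H2-Aa, H2-Eb1, H2-DMa and H2-DMb1), and the 250 bases before each start were searched on both strands for an X box core written CTNGNAAC and a Y box written TGATTGG. These letters were chosen with the class II promoters in view, and the motifs do not overlap each other. The segments that hold both boxes on the same strand are given 5′ to 3′ in the direction of the gene, with the boxes in capitals, and H2-Ob, a chain of the H2-O inhibitor of H2-DM, is shown beside the members because it carries the same arrangement.
H2-Aa, chr17:34287855-34287919, minus strand: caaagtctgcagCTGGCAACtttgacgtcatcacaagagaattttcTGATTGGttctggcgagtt
H2-Eb1, chr17:34305761-34305824, plus strand: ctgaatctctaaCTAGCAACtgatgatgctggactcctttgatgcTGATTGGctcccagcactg
H2-DMb1, chr17:34153082-34153146, plus strand: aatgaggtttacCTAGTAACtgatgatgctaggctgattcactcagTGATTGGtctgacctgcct
H2-Ob, chr17:34238803-34238864, plus strand: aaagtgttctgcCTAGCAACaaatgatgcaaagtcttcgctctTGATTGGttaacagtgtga

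The boxes stand 26 bases apart in H2-Aa, 25 in H2-Eb1, 26 in H2-DMb1 and 23 in H2-Ob. Of 32851 promoter windows of the same length, 10.9% hold the X box core and 7.23% the Y box, whereas 24 windows (0.0731%) hold both on the same strand with 10 to 40 bases between them. The H2-DMa windows hold neither set of letters. H2-DMb2 and H2-Oa, the other chain of H2-O, hold the Y box alone. In the values that follow, H2-Aa and H2-Eb1 varied together across libraries and H2-DMb1 varied little. A match of letters is a description and not a measured binding site.

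The classical chains were the members with the largest mean differences from saline in both LPS groups. H2-Aa, the alpha chain of I-A, stood at 2658, 1150 and 5349 normalized counts after saline, at 1144, 1383 and 1291 in LPS-treated controls and at 1146, 1126 and 509 in cKO LPS. Saline libraries 1 and 3 were above every LPS library, while saline library 2 lay within the control LPS range. H2-Ab1, its beta chain partner, was at 2750, 1441 and 4707 in saline, 1320, 1609 and 1284 in LPS-treated controls and 1373, 1408 and 697 in cKO LPS. H2-Eb1, the beta chain of I-E, was at 2739, 1183 and 4893 in saline, 1152, 1250 and 1215 in LPS-treated controls and 1297, 1089 and 483 in cKO LPS. All 3 chains thus had the same order of libraries at the extremes, highest in saline library 3 and lowest in cKO LPS library 3. Reads numbered 5189, 4566 and 3639 for H2-Aa over the saline, control LPS and cKO LPS groups, so counting error is small beside the spread between libraries. In bulk RNA, fewer class II-bearing cells and less class II RNA per cell cannot be told apart.

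**Figure D1:**
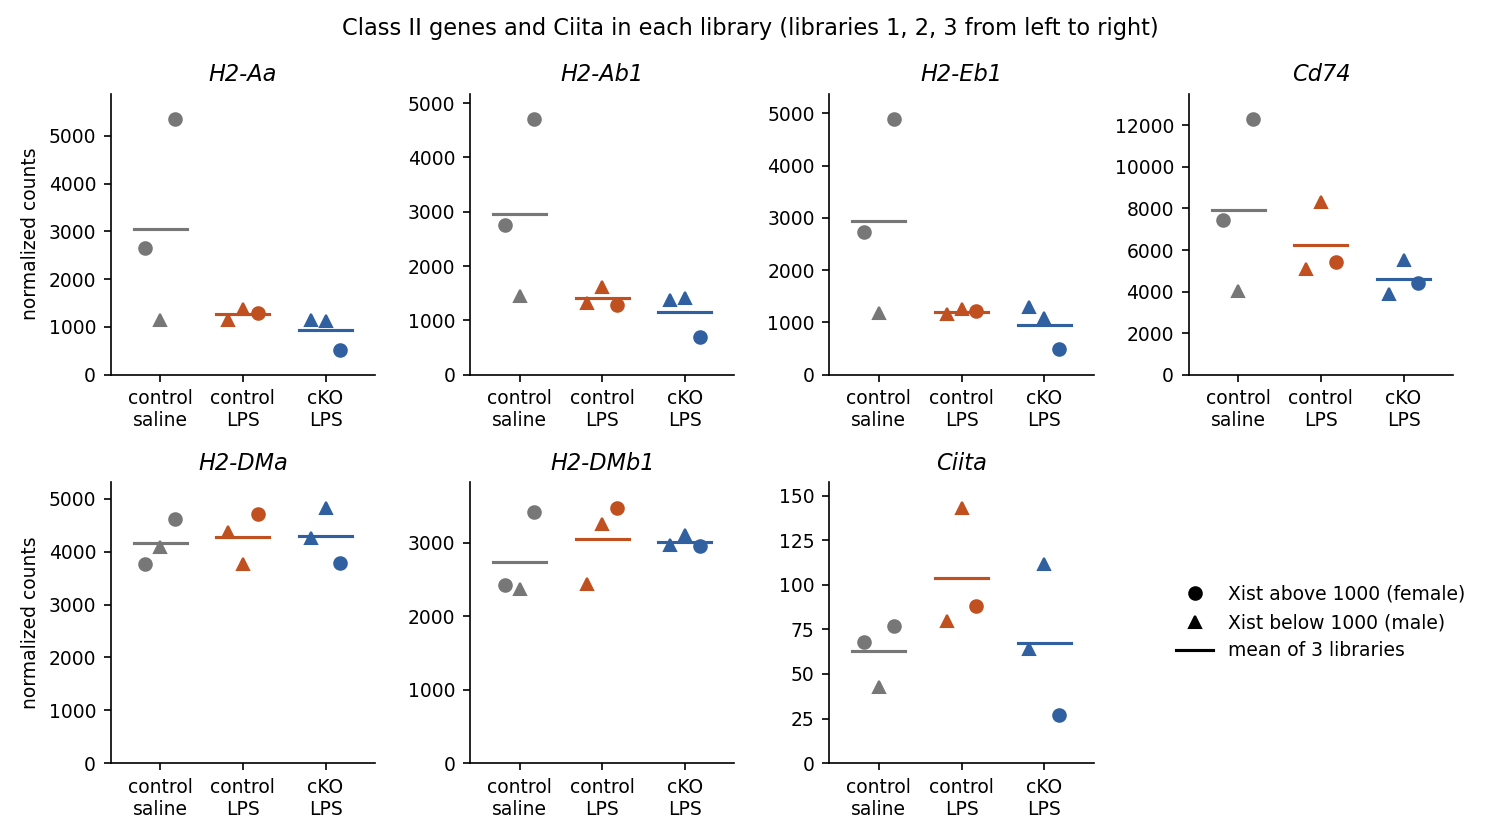
Normalized counts (linear axis from 0) of each of the 7 genes in the 9 libraries, with the bar at the mean of 3 libraries and the symbol giving the sex called from Xist. The H2-Aa, H2-Ab1 and H2-Eb1 panels show saline libraries 1 and 3 far above the rest (5349 for H2-Aa in saline library 3), while the H2-DMa and H2-DMb1 groups overlap.

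On average the classical chains were lower after LPS in control mice, but none passed the test. H2-Aa went from 3052 ± 2127 to 1273 ± 120 (SD, n = 3 per group), a limma log2 fold change of -1.0 with SE 0.50 (adjusted p = 0.333 over all genes tested). H2-Ab1 went from 2966 ± 1644 to 1404 ± 178, a log2 fold change of -0.92 with SE 0.41 (limma adjusted p = 0.263). H2-Eb1 went from 2939 ± 1863 to 1206 ± 49.3, a log2 fold change of -1.06 with SE 0.50 (limma adjusted p = 0.294). The 95% confidence intervals ran from -2.14 to 0.14 for H2-Aa, -1.84 to -0.01 for H2-Ab1 and -2.18 to 0.06 for H2-Eb1, so a fall by a factor of 4 and near-equality are both within the error for H2-Aa and H2-Eb1. The authors' deposited table gave -1.26, -1.08 and -1.28 for the same genes, with adjusted p = 0.0874, 0.0834 and 0.0698. Of the 7 genes, 0 were called by limma in this comparison and 0 by edgeR or by the authors' deposited table, against 5.6% of all genes by limma, 4.72% by edgeR and 9.92% in the deposited table. At an unadjusted limma p under 0.05 the count was 1 of 7 (H2-Ab1), against 18.8% of all genes.

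Leaving out saline library 2 or saline library 3 moved these differences in opposite directions. Without saline library 3, the log2 fold changes were -0.46 for H2-Aa, -0.51 for H2-Ab1 and -0.58 for H2-Eb1. Without saline library 2, they were -1.57, -1.36 and -1.60, with limma adjusted p from 0.0894 to 0.0947. Saline library 3 was also the shallowest, at 10845937 reads of a range up to 86571481 in cKO LPS library 3, and its summed border-associated macrophage markers were the highest of the saline group (17144 normalized counts against 8271 and 7919). Its summed microglia markers were the highest of all 9 libraries (1644310 normalized counts), with P2ry12 at 129350 against 72405 and 71261 in the other saline libraries. Csf1r, Sall1 and Trem2 alone of that list were not highest there. Csf1r was at 382724 against 435073 in cKO LPS library 2, Sall1 at 30143 against 36958 in saline library 2, and Trem2 at 34446 against 38724 in cKO LPS library 2. The part of depth and of these cells in the class II values was not tested.

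Sex followed the split among the saline libraries. The labels give no sex, but Xist, transcribed from the inactive X chromosome, was at 21229 to 57619 normalized counts in saline libraries 1 and 3, control LPS library 3 and cKO LPS library 3 and at 0 to 6.21 in the other 5 libraries, where the Y-linked Ddx3y was read instead. The saline group thus holds 2 female libraries and 1 male library, and each LPS group holds 1 female and 2 male libraries. Among the 5 male libraries H2-Aa was 1150 in saline and 1126 to 1383 in LPS, so the single male saline library lay inside the male LPS range. Among the 4 female libraries H2-Aa was 2658 and 5349 in saline, 1291 in LPS-treated controls and 509 in cKO LPS. Each of these LPS values is of 1 library, so the spread among females after LPS is not known. H2-Ab1 and H2-Eb1 had the same split.

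This pattern was noticed in the values and then fitted on them, with the interaction of LPS and sex added to limma after the data were seen and 4 residual degrees of freedom left. The LPS effect on the log2 scale in females was -1.94 for H2-Aa, -1.76 for H2-Ab1 and -2.03 for H2-Eb1, and in males 0.33, 0.15 and 0.24. The difference, female minus male, was -2.27 with SE 0.60 for H2-Aa, -1.91 with SE 0.46 for H2-Ab1 and -2.27 with SE 0.58 for H2-Eb1, with unadjusted limma p of 0.00661, 0.00419 and 0.00585. After adjustment over all genes tested, p was 0.9928 for each of them. No gene was called (0% of 16575), and 633 genes (3.82%) had an unadjusted p under 0.05, among them 4 of the 7 members. With sex as a covariate and no interaction, the LPS effect on H2-Aa was -0.93 and 0 members were called. With 1 male saline library, sex and that library cannot be told apart in the saline group.

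**Figure D2:**
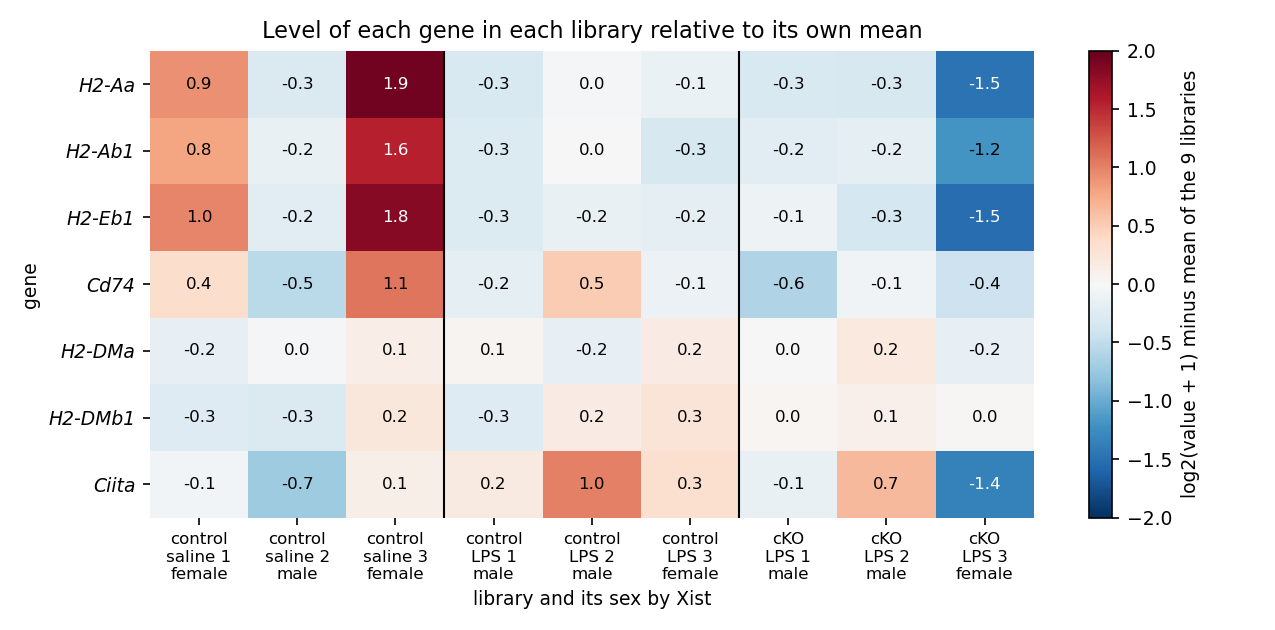
Log2(value + 1) of each gene in each library minus that gene's mean over the 9 libraries (colour and printed value), with libraries grouped by condition and marked by sex. The rows of H2-Aa, H2-Ab1 and H2-Eb1 are high in saline libraries 1 and 3 and low in cKO LPS library 3, and the H2-DMa and H2-DMb1 rows stay within 0.3 of 0.

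Cd74, the invariant chain that also serves as a receptor for the cytokine Mif, was at 7466, 4021 and 12305 normalized counts in saline, 5092, 8298 and 5405 in LPS-treated controls and 3864, 5543 and 4393 in cKO LPS. The groups overlap, with saline library 3 highest and cKO LPS library 1 lowest. The mean went from 7931 ± 4162 to 6265 ± 1768 after LPS in control mice, a log2 fold change of -0.23 with SE 0.37 (limma adjusted p = 0.795), and without saline library 3 the sign turned, at 0.16. The female minus male difference in its LPS effect was -1.42 with SE 0.49 (limma adjusted p = 0.9928, and 0.0227 before adjustment).

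H2-DMa and H2-DMb1, the chains of the peptide editor, differed between groups by no more than the spread between libraries. H2-DMa was at 3759, 4096 and 4617 in saline, 4379, 3764 and 4717 in LPS-treated controls and 4256, 4835 and 3791 in cKO LPS. H2-DMb1 was at 2417, 2368 and 3411 in saline, 2440, 3247 and 3477 in LPS-treated controls and 2970, 3100 and 2949 in cKO LPS. Every pair of groups overlapped for both genes, and no library stood apart. The LPS effect in control mice was 0.04 on the log2 scale for H2-DMa (95% interval -0.27 to 0.36) and 0.17 for H2-DMb1 (-0.23 to 0.56), with limma adjusted p = 0.911 and 0.682. These intervals leave no room for a fall as large as the mean difference fitted for H2-Aa.

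Ciita, the transactivator, was the least abundant member and the only one whose mean was higher after LPS by more than its standard error. It was at 68.1, 43.0 and 77.0 normalized counts in saline, 79.9, 143 and 88.3 in LPS-treated controls and 63.8, 112 and 27.2 in cKO LPS. Each control LPS library was above each saline library, a separation that 13.4% of all genes tested had in that direction, while the cKO LPS libraries ran from below to above the saline range. The mean went from 62.7 ± 17.7 to 104 ± 34.4 in control mice, a log2 fold change of 0.71 with SE 0.51 (limma adjusted p = 0.515). Its reads totalled 124, 380 and 260 over the 3 groups, and 1 read was worth 3.21 normalized counts in saline library 3, so the depth there limits precision.

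Levels per kilobase of the principal GENCODE M21 transcript allow the genes to be ranked. In saline, the mean level was 5625 normalized counts per kilobase for Cd74, 2706 for H2-Aa, 2508 for H2-DMa, 2447 for H2-Ab1, 1946 for H2-DMb1, 1761 for H2-Eb1 and 10.4 for Ciita. Neighbours in this order overlapped between libraries except H2-Eb1 and Ciita. In control LPS the order was Cd74 at 4443, H2-DMa at 2586, H2-DMb1 at 2176, H2-Ab1 at 1159, H2-Aa at 1128, H2-Eb1 at 722 and Ciita at 17.3. There the levels of Cd74 and H2-DMa, of H2-DMb1 and H2-Ab1, of H2-Aa and H2-Eb1, and of H2-Eb1 and Ciita did not overlap. In cKO LPS the order was the same, from Cd74 at 3262 through H2-DMa at 2590, H2-DMb1 at 2141, H2-Ab1 at 956, H2-Aa at 822 and H2-Eb1 at 573 to Ciita at 11.2. The peptide editors thus ranked among the classical chains in saline and above all 3 of them in both LPS groups.

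The balance between the classical chains and the peptide editors shows this within each library, free of library scaling. The mean log2 level of H2-Aa, H2-Ab1 and H2-Eb1 minus that of H2-DMa and H2-DMb1 was -0.15, -1.31 and 0.33 after saline, -1.44, -1.31 and -1.68 in LPS-treated controls and -1.49, -1.69 and -2.59 in cKO LPS. Saline libraries 1 and 3 were above every LPS library, and saline library 2 was level with control LPS library 2. The ratio of Cd74 to the mean of the classical chains was 2.75, 3.20 and 2.47 in saline, 4.22, 5.87 and 4.28 in LPS-treated controls and 3.04, 4.59 and 7.80 in cKO LPS. All control LPS libraries were above all saline libraries in this ratio, and cKO LPS library 1 lay within the saline range. Unlike the classical chains themselves, this ratio did separate saline library 2 from control LPS.

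In cKO mice given LPS the classical chains were again lower on average than in control saline, without passing the test. H2-Aa was at 927 ± 362 in cKO LPS, a log2 fold change of -1.55 with SE 0.50 against saline (limma adjusted p = 0.109), and its 95% interval ran from -2.68 to -0.41. H2-Ab1, at 1159 ± 400, differed by -1.26 with SE 0.41 (limma adjusted p = 0.106), and H2-Eb1, at 956 ± 423, by -1.51 with SE 0.50 (limma adjusted p = 0.111). For H2-Aa and H2-Ab1 every cKO LPS library was below every saline library, as for 13.8% of all genes tested, and for H2-Eb1 the groups overlapped. Of the 7 members, limma called 0 in this comparison, against 6.82% of all genes, and edgeR called 0 against 5.36%, with adjusted p from 0.0881 to 0.0954 for the classical chains. At an unadjusted limma p under 0.05 the count was 3 of 7, against 21.8% of all genes.

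Whether these chains pass depended on the method. The authors' deposited table called all 3 lower, at -1.72 for H2-Aa (adjusted p = 0.00681), -1.35 for H2-Ab1 (adjusted p = 0.0137) and -1.62 for H2-Eb1 (adjusted p = 0.0102), beside 3.43% of all genes called lower there. Limma with array weights called the same 3, at -1.29, -1.05 and -1.26, with adjusted p from 0.0284 to 0.0345. That setting called 1168 of all 16575 genes lower, against 234 in the main fit. Without saline library 2, the male one, limma also called them, at -2.12, -1.70 and -2.05 with adjusted p from 0.0339 to 0.0403, beside 85 of all 16575 genes called lower. Without saline library 3 they stood at -1.01, -0.85 and -1.03. Cd74 differed by -0.66 (limma adjusted p = 0.328), H2-DMa by 0.04, H2-DMb1 by 0.16 and Ciita by -0.07 (limma adjusted p = 0.953). This comparison shares its saline libraries with the preceding one, so a high saline library moves both.

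**Figure D3:**
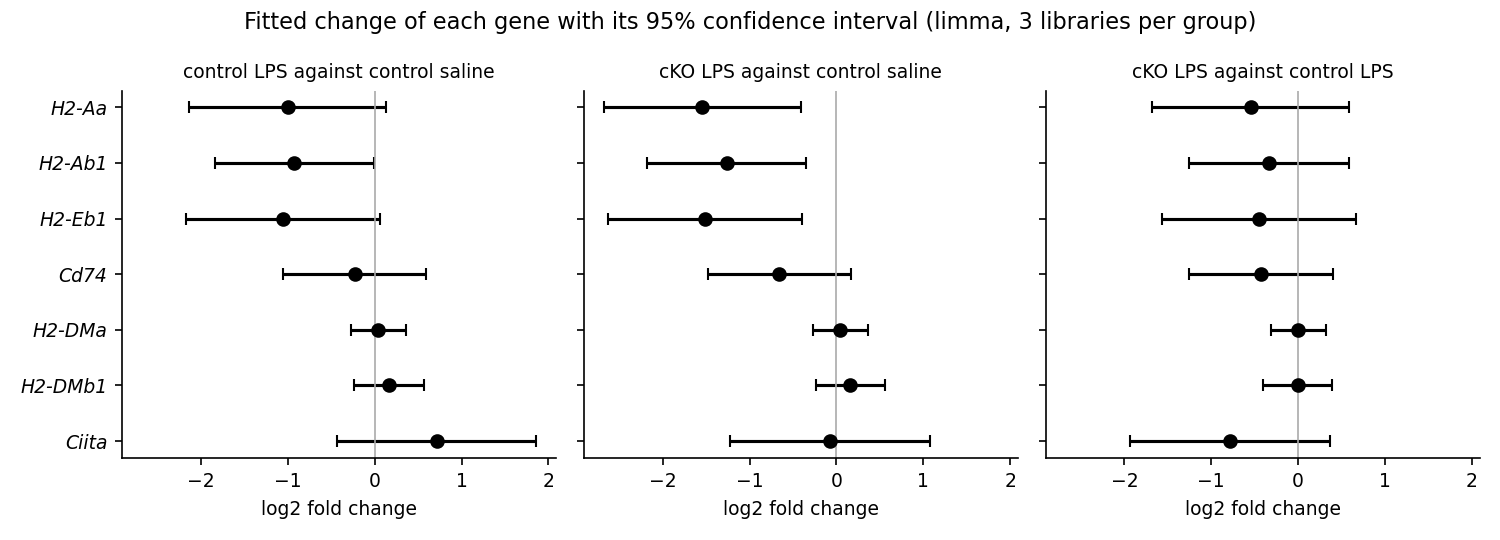
Log2 fold change of each gene (points) with its 95% confidence interval (bars) from limma over 9 libraries, for the 3 comparisons. The intervals of H2-Aa, H2-Ab1 and H2-Eb1 lie below 0 for cKO LPS against control saline (-2.68 to -0.41 for H2-Aa) without passing adjustment over all genes, and all 7 intervals include 0 for cKO LPS against control LPS.

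No difference in class II genes was detectable between microglia of astrocyte Chd8 cKO mice and of control mice under LPS. Against control LPS, the log2 difference in cKO LPS was -0.55 for H2-Aa, -0.34 for H2-Ab1, -0.45 for H2-Eb1, -0.43 for Cd74, 0.0016 for H2-DMa, -0.01 for H2-DMb1 and -0.78 for Ciita, all with limma adjusted p = 0.9999. Limma called 0 of the 7 and 0% of all genes, and 0 of the 7 had an unadjusted p under 0.05, against 1.59% of all genes. EdgeR called 0 members and 0 genes, and the authors' deposited table called 0 members and 0.0176% of all genes. The 95% intervals ran from -1.68 to 0.59 for H2-Aa, -1.26 to 0.58 for H2-Ab1 and -1.57 to 0.66 for H2-Eb1, and from -0.31 to 0.32 for H2-DMa, so a difference by a factor of 2 lies within the error for the classical chains and outside it for H2-DMa.

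For the classical chains and Ciita, the lower means in cKO LPS rested largely on cKO LPS library 3, which was the deepest and the only female library of that group. Without it the differences from control LPS were -0.16 for H2-Aa, -0.0073 for H2-Ab1, -0.02 for H2-Eb1 and -0.25 for Ciita. For Cd74 the lowest library was cKO LPS library 1 (3864 normalized counts), and its difference from control LPS ran from -0.57 to -0.21 with 1 library left out. The part of depth and sex in the low values of cKO LPS library 3 was not tested. Over the 7 members, the median log2 change was -0.23 in control LPS and -0.66 in cKO LPS, each against saline, and -0.43 between the LPS groups, beside medians over all genes tested of 0.02, -0.01 and -0.02. With 1 library left out these medians ran from -0.65 to 0.12, with the sign turned without saline library 3, from -1.08 to -0.27, and from -0.57 to -0.02, the last without cKO LPS library 3.

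Members varied unequally among replicates. The within-group SD on the log2 scale was 0.75 for H2-Aa, 0.60 for H2-Ab1, 0.74 for H2-Eb1 and 0.54 for Cd74, each above that of at least 95.1% of the genes whose mean lay within a factor of 2, where the median SD was about 0.20 to 0.21. H2-DMa at 0.16 and H2-DMb1 at 0.23 lay at percentiles 27.0 and 62.5 of their own comparison genes, and Ciita at 0.68 lay at percentile 59.1 of genes as low as it. The spread of the classical chains was mostly in saline, where the SD of H2-Aa was 1.11, against 0.14 in LPS-treated controls and 0.67 in cKO LPS.

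Limma called none of the remaining class II chains. H2-DMb2, the second DM beta chain, was at a log2 fold change of 0.37 after LPS in control mice (limma adjusted p = 0.401), H2-Oa at 0.07 and H2-Ob at -0.11. Of the 5 genes listed, 4 were in the table and 3 could be tested, and 0 of 3 were called in any of the 3 comparisons, by limma, edgeR or the authors' deposited table, with 0 at an unadjusted p under 0.05. With array weights, limma called H2-DMb2 higher against saline in LPS-treated controls, at 0.63 (adjusted p = 0.0453), and in cKO LPS, at 0.54 (adjusted p = 0.0482). That setting called 1921 of all 16575 genes higher in LPS-treated controls and 2014 in cKO LPS. H2-Eb2 was nearly silent, with 2, 23 and 22 reads over the 3 groups.

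The genes that process antigen for class II and were called by limma were all higher after LPS. Of 12 tested, 2 rose and 0 fell after LPS in control mice, where limma called 4.68% of all genes higher and 0.923% lower. Ifi30, the lysosomal thiol reductase that unfolds antigens, was at 4139, 4854 and 5359 normalized counts in saline, 12730, 25144 and 19626 in LPS-treated controls and 20305, 18141 and 23349 in cKO LPS, and rose by 1.96 on the log2 scale (limma adjusted p = 0.00304). Every LPS library was above every saline library, as for 13.4% of all genes tested in LPS-treated controls and 17.9% in cKO LPS. Ctsl, a cysteine protease that cuts the invariant chain in thymic epithelium, rose by 1.33 (limma adjusted p = 0.0194), a call lost without saline library 1 or 2 or control LPS library 2 or 3 (adjusted p from 0.0735 to 0.0812). Ctss, cathepsin S, the protease that completes invariant chain cleavage in dendritic and B cells, had 0.77 (limma adjusted p = 0.206), and Ctsb had 1.01 (0.0628). The authors' deposited table called 4 of 12 higher, against 7.75% of all genes, among them Ctss at 0.78 (adjusted p = 0.00074) and Ctsb at 1.03 (3.04e-06). Limma with array weights also called Ctss (adjusted p = 0.0279) and Ctsb (0.00573), a setting that called 1921 of all 16575 genes higher. Marchf1, the ubiquitin ligase that removes class II from the surface, had -0.08, and Cd83, which counters it, 0.05. In cKO LPS against saline, where 5.41% of all genes were called higher, 3 of 12 rose and 0 fell, namely Ifi30 by 2.11, Ctsl by 1.53 and Ctsb by 1.12 (limma adjusted p = 0.0368 for Ctsb, which was lost without any 1 of the libraries compared, at 0.0555 to 0.131). The authors' deposited table called 4 of 12 higher there, against 8.74% of all genes, among them Ctss at 0.57 (adjusted p = 0.0226). Median log2 changes of the list by limma were 0.44 in LPS-treated controls and 0.47 in cKO LPS.

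Limma called no gene of the complex that holds Ciita at the X and Y boxes. All 8 were tested, and the RFX subunits Rfx5, Rfxap and Rfxank had log2 fold changes of 0.17, -0.46 and -0.21 after LPS in control mice, with limma adjusted p from 0.157 to 0.78. Nfya, Nfyb and Nfyc, the subunits of NF-Y that bind the Y box, had -0.38, -0.31 and -0.14. EdgeR called 0 of 8 as well, and 1 of 8 had an unadjusted limma p under 0.05, against 18.8% of all genes. In cKO LPS against saline the count by limma was again 0, with 3 of 8 at an unadjusted p under 0.05, against 21.8% of all genes, and Rfxap was called lower in the authors' deposited table, at -0.49 (adjusted p = 0.0399). With array weights, limma called 2 of 8 lower in each comparison against saline, among them Rfxap at -0.51 in LPS-treated controls (adjusted p = 0.0411) and -0.58 in cKO LPS (adjusted p = 0.0133). That setting called 868 of all 16575 genes lower in LPS-treated controls and 1168 in cKO LPS.

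On the interferon gamma route to Ciita, limma called 3 of 13 genes higher and 0 lower after LPS in control mice, against 4.68% of all genes called higher, among them Zbtb32 and Ifngr2. Zbtb32, a repressor of Ciita in B cells, was read 4 times in the saline group, 134 times in LPS-treated controls and 118 times in cKO LPS, and rose by 4.02 (limma adjusted p = 0.0106; 0.0534 without control LPS library 3). Ifngr2, a chain of the interferon gamma receptor, rose by 0.70 (limma adjusted p = 0.0398), a call lost when any library but control LPS library 1 was left out (0.0603 to 0.151). Irf1, which drives the interferon-responsive Ciita promoter, had -0.35 (limma adjusted p = 0.459). Ifng itself was at 6.91, 1.39 and 0 normalized counts in saline, 0.888, 15.5 and 62.5 in LPS-treated controls and 17.3, 11.4 and 9.34 in cKO LPS, so most of its signal in LPS-treated controls was in library 3. Markers of T and NK cells, which make interferon gamma, were highest in the same library, with sums of 201 to 494 normalized counts in saline, 813 to 4542 in LPS-treated controls and 956 to 1523 in cKO LPS. Of this marker list, limma called 4 of the 7 tested higher after LPS in control mice and 0 lower. The part of T and NK cells in the interferon gamma list was not tested.

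In cKO LPS against saline limma called 4 of 13 higher and 0 lower, against 5.41% of all genes called higher. Ifngr2 rose by 0.77 and Zbtb32 by 3.79, and Prdm1, which encodes the Ciita repressor Blimp1, rose by 0.98 (limma adjusted p = 0.00876). In LPS-treated controls Prdm1 had 0.60 against saline (limma adjusted p = 0.0694), and the authors' deposited table called it higher there, at 0.58 (adjusted p = 0.0232). The Ifngr2 call was lost without any 1 of the 6 libraries compared (limma adjusted p from 0.065 to 0.0909), and the Zbtb32 call without cKO LPS library 1 or 2 (0.0575 and 0.0532). Irf1 had -0.81 (limma adjusted p = 0.0668) and Socs1, the feedback inhibitor of the pathway, -1.27 (limma adjusted p = 0.062). The authors' deposited table called both lower, Irf1 at -0.81 (adjusted p = 0.0185) and Socs1 at -1.28 (adjusted p = 0.00556). Limma also called Irf1 lower with quantile normalization (adjusted p = 0.0154), array weights (0.017), these 2 groups alone (0.0446), the replicate number as a block (0.0421) or without control LPS library 1 (0.0299), and Socs1 with array weights (0.0122) or without control LPS library 1 (0.0489). Between cKO LPS and control LPS, limma, edgeR and the authors' deposited table called 0 of these 13 genes, and 1 had an unadjusted limma p under 0.05.

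Of 7 MHC class I genes tested in the same libraries, 3 rose and 0 fell after LPS in control mice, against 4.68% of all genes called higher by limma, with a median log2 change of 0.87. Nlrc5, the transactivator of class I and a relative of Ciita, was at 360, 427 and 276 in saline, 1922, 1634 and 1558 in LPS-treated controls and 1565, 1590 and 1787 in cKO LPS, and rose by 2.28 (limma adjusted p = 0.000327). H2-D1, a class I heavy chain, rose by 1.37 (limma adjusted p = 0.00957) and Tap1, of the peptide transporter, by 0.87 (limma adjusted p = 0.00259). The authors' deposited table called 5 of 7 higher, against 7.75% of all genes. It added H2-K1 at 0.91 (adjusted p = 0.00199) and B2m at 0.77 (0.00737), which had limma adjusted p = 0.0505 and 0.0969. In cKO LPS against saline limma called the same 3 higher, Nlrc5 by 2.23, H2-D1 by 1.27 (limma adjusted p = 0.0119, and 0.0532 without cKO LPS library 1) and Tap1 by 0.97. The authors' deposited table again called 5 of 7 higher there, against 8.74% of all genes.

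**Figure D4:**
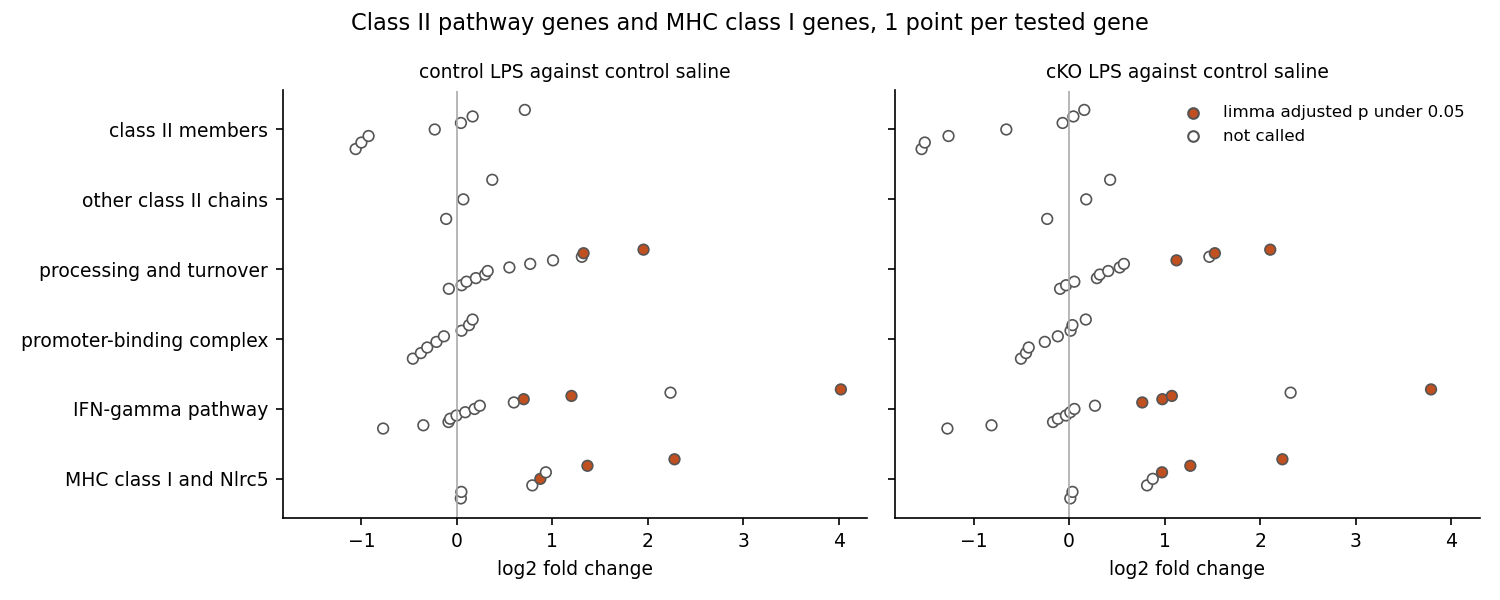
Log2 fold change (horizontal axis) of each tested gene in the class II set and 5 related lists, with filled points at limma adjusted p under 0.05, for control LPS and cKO LPS against control saline. Filled points lie to the right in the processing, interferon gamma and class I lists (2.28 for Nlrc5), and no class II member is filled.

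Markers of other cells that carry class II were read in the sort. For comparison with their counts, limma called 4.68% of all genes higher and 0.923% lower after LPS in control mice, and edgeR called 4.72% in either direction. Border-associated macrophage markers summed to 7919 to 17144 normalized counts in saline, 12612 to 20232 in LPS-treated controls and 14618 to 21597 in cKO LPS, all 10 were tested, and limma called 2 higher after LPS in control mice, Siglec1 by 2.69 and Clec12a by 2.33. Fitted changes there were positive for 7 of the 10 and negative for 3, down to -1.07. The means of Lyve1 (490 to 209), Pf4 (750 to 575) and Cd209f (223 to 128) were lower in LPS-treated controls than in saline, without a call. The Clec12a call (adjusted p = 0.0286) was lost without saline library 1 or 2, control LPS library 2 or 3 or cKO LPS library 2 (limma adjusted p from 0.0505 to 0.1075), with quantile normalization (0.0507) and with the 2 groups alone (0.0875). Dendritic cell markers summed to 2791 to 3648, 2834 to 3971 and 2621 to 3121, and of 13 tested limma called 3 higher and 1 lower, and edgeR 1 higher and 1 lower. The 3 were Ccr7, by 2.79 (limma adjusted p = 0.0174), Ffar2, by 3.42 (0.0337) and Cd24a, by 1.94 (0.0493). Ffar2 was read 5 times in the saline group, 70 times in LPS-treated controls and 41 times in cKO LPS. It passed the filter on low values only through the LPS groups, so its fold change rests on few reads. The Ccr7 call was lost without saline library 3 or control LPS library 2 or 3 and with the 2 groups alone (limma adjusted p from 0.0521 to 0.0714), and the Cd24a call without any 1 library but control LPS library 1 (0.0663 to 0.157) and under 6 other settings. The one called lower was Cd209a, a lectin of monocyte-derived dendritic cells. It was at 321, 148 and 372 in saline, 16.9, 11.8 and 16.6 in LPS-treated controls and 22.7, 8.97 and 3.40 in cKO LPS, and fell by 4.04 (limma adjusted p = 0.00772). Every LPS library was below every saline library, as for 8.23% of all genes tested in LPS-treated controls and 13.8% in cKO LPS. The conventional dendritic cell markers Xcr1 and Clec9a were near 0, at 0.888 to 12.8 and 2.95 to 17.9 normalized counts over all libraries.

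B cell markers summed to 1304 to 2137 in saline, 3209 to 5691 in LPS-treated controls and 3687 to 6110 in cKO LPS. Limma called 2 of 9 higher in control mice, among them Cd22 by 2.25, against 4.68% of all genes called higher. Monocyte markers rose in 6 of 10 and neutrophil markers in 11 of 12, by the same test. Of microglia markers 0 of 12 were called by limma or edgeR, and 7 had an unadjusted limma p under 0.05, against 18.8% of all genes. The authors' deposited table called 6 of the 12 lower, against 2.16% of all genes, and their median log2 change was -0.54. Cd79a and Ms4a1, which define B cells, were not at 0 in any library, and the lowest was 4.16. The part of these cells in the class II values was not tested. Astrocyte markers summed to 99094 in control LPS library 1 and to 5290 to 9424 in the other 8 libraries, and without control LPS library 1 the LPS effect on H2-Aa in control mice was -0.92 (limma adjusted p = 0.326).

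Likeness across the 9 libraries was measured from the joint mean of the classical chains, which holds those 3 genes, so their own small distances follow in part from that choice. The root mean square difference from it, each gene centred on its own mean on the log2 scale, was 0.08 for H2-Aa, 0.08 for H2-Eb1 and 0.12 for H2-Ab1, against 0.51 for Cd74, 0.81 for H2-DMa, 0.83 for H2-DMb1 and 0.84 for Ciita. Among 13201 genes with a mean of at least 50, the nearest to that joint mean outside the set were Apobec2 at 0.35, the purinergic receptor gene P2ry13 at 0.36 and Hs3st1 at 0.38, a target that was chosen after the values were seen. The genes nearest to the mean of all 6 structural members were Bcl2l1 at 0.22, Znrd1as at 0.23 and Hspb3 at 0.23. Nearest to Ciita stood Csf1r-ps at 0.32 and Kcna7 at 0.37.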

How the data were processed

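RNA was sequenced from 9 libraries of CD11b-sorted cells, 3 per group, and groups were taken from the genotype and treatment labels. The deposited table holds, per gene, a signal that is the read count over a size factor for each library. The authors also deposited comparison tables with log2 fold changes, p-values before and after adjustment, and a standard error recorded here as a score. The submitters' processing notes name build mm10 and, in no order, STAR, RSEM, DESeq2, featureCounts, edgeR 3.30.3, FastQC, MultiQC 1.12 and Trimmomatic, without saying which made these files or with which annotation. All deposited signal values were whole multiples of 1 read to within 0.01 (100%), giving 10845937 to 86571481 reads per library. DESeq2 1.42.0 on these reads gave the deposited log2 fold changes to within 7.34e-06.

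Values were tested as log2(value + 1) with limma-trend (R 4.3.3, limma 3.58.1) on 16575 genes with a mean of at least 10, in a fit over 9 libraries with 6 residual degrees of freedom. Adjustment was Benjamini-Hochberg over all genes tested, with a threshold of 0.05. Fold changes on this scale understate the change of low genes. Alternatives included edgeR 4.0.16 on the recovered reads, which called 815 genes for control LPS against control saline, 925 for cKO LPS against control saline and 0 between the LPS groups. The members and gene lists were chosen with earlier results of these data known. Genes to be named were all members, genes of the lists, and the genes nearest to the members by root mean square difference; sex from Xist and the target of classical chains were added after the values were seen. The fit was tested on simulated data. No sample pair agreed within sampling noise (chi-square per degree of freedom 35.2 to 196). Some genes of these lists are counted and not reported here by name.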

Additional observations from a re-analysis of the deposited data

How the results depend on the processing

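Under all 20 other settings, no class II member was called between control LPS and control saline or between cKO LPS and control LPS. For cKO LPS against control saline, 0 members were called, but 3 were with array weights and 3 with DESeq2 on recovered reads, and leaving out 1 library gave 0 to 3 (3 without saline library 2). The genes called for control LPS against control saline numbered 929 (776 higher and 153 lower), against 2789 with array weights (1921 higher and 868 lower), 417 when the 2 groups were fitted alone, 1770 with DESeq2, and 374 to 1826 with 1 library left out. For cKO LPS against control saline, 1131 genes became 3182 with array weights (2014 higher and 1168 lower), 2064 with DESeq2 and 490 to 1656 with 1 library left out. For cKO LPS against control LPS, 0 genes became 1 with the 2 groups alone, 4 with DESeq2 and 0 to 1 with 1 library left out. Quantile normalization moved the median of all genes to -0.10 in control LPS against saline. The cause of these shifts was not tested.

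Signs turned only where values were small or rested on 1 library. In control LPS against saline, H2-DMa had -0.068 with quantile normalization and -0.029 to 0.13 with 1 library left out, Cd74 ran from -0.65 to 0.16, H2-Oa had -0.042 with quantile normalization and -0.20 to 0.30 with 1 library left out, and H2-Ob ran from -0.34 to 0.15. In cKO LPS against control LPS, H2-DMb1 had 0.0018 with edgeR and -0.16 to 0.095 with 1 library left out, and H2-DMa ran from -0.089 to 0.088. In cKO LPS against saline, H2-DMa had -0.060 with quantile normalization and -0.044 to 0.13 with 1 library left out. Ciita had 0.11 with array weights, with edgeR and with DESeq2, and -0.53 to 0.47 with 1 library left out, and H2-Oa ran from -0.37 to 0.021.

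Correlations of same-numbered deviations ran from -0.066 to 0.468. All 3 were over 0.1 between saline and cKO LPS (0.242 to 0.387), and 1 of 3 was not in each of the other comparisons, so the replicate numbers were not taken to pair the libraries throughout. With the replicate number as a block, H2-Aa had -1.0 in control LPS against saline (limma adjusted p = 0.333) and -1.55 in cKO LPS against saline (limma adjusted p = 0.125), and the calls numbered 926, 0 and 1286 genes and 0 members in each comparison. Among the other genes named, the block moved the limma calls of Irf1 (lower, adjusted p = 0.0421), H2-K1 (0.0477) and Clec12a (0.0403) past the threshold in cKO LPS against saline, and in LPS-treated controls that of H2-K1 past it (0.0473) and that of Cd24a out of it (0.076). Low depth in saline library 3 limits Ciita most, and groups of 3 leave differences by a factor of 2 in the classical chains within the error.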
